A study of Mus musculus with 8 samples.

Results

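Base excision repair and nucleotide excision repair were examined in mouse morulae through 42 genes, all of which were found by symbol among the 18257 genes of the deposited table. The genes were sorted by the step at which their products act, with 10 DNA glycosylases, 9 genes of end processing, gap filling and ligation, 10 of lesion recognition, 10 of the transcription factor complex TFIIH and 3 of incision. Of the 42 genes, 41 passed the filter on low counts, and the glycosylase gene Neil2 did not.

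The study cultured wild-type embryos with 2 µM A485, a small molecule that blocks histone acetylation by the coactivators p300 and CBP, or with 0.1% DMSO, the solvent, as control. Both groups were held in KSOM, a medium for preimplantation embryos, from the 4-cell stage onward, and the zona pellucida was removed from embryos of both groups before lysis. The labels call the samples morulae, while the culture they describe runs to the blastocyst stage. Each group had 4 libraries of polyadenylated RNA, and each library pooled 3 morulae. Mouse strain, litter and culture day are not given in the sources used here, nor is the DMSO content of the A485 medium, and p-values therefore measure the spread between pools.

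Base excision repair removes small chemical damage from DNA. A glycosylase cuts out the damaged base, an endonuclease opens the backbone at the site left without a base, and a polymerase and a ligase close the gap. Nucleotide excision repair removes bulky lesions such as those made by ultraviolet light. Lesions are found either by surveying the whole genome or where RNA polymerase stalls, TFIIH unwinds the DNA around them, and a pair of nucleases cuts out the stretch that holds them. Most TFIIH subunits also serve in the initiation of transcription, so they are not specific to repair.

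Total estimated counts per library lay between 23641779 and 25677692. The 12936 genes that passed the filter were tested with edgeR (quasi-likelihood, Benjamini-Hochberg adjusted p of 0.05 as the threshold), and 25.0% of them were lower and 29.7% higher in A485, 54.7% in all. A485 libraries differed more among themselves than control libraries, with a chi-square per degree of freedom of 64.3 to 225 between pairs of A485 libraries and 19.7 to 34.9 between pairs of control libraries. Within A485, libraries 1 and 2 (70.6) and libraries 3 and 4 (64.3) were the nearest pairs. The 12 markers of the preimplantation embryo, such as Pou5f1 and Cdx2, were all detected, and 11 of them were lower in A485, with a summed level of 2277 to 3385 CPM in A485 libraries against 5145 to 6216 CPM in control libraries. Markers of cumulus and granulosa cells summed to 24.6 to 48.5 CPM in A485 and 24.1 to 40.7 CPM in control, nearly all of it from Amhr2 (mean of 33.5 CPM in A485 and 28.3 CPM in control), and Has2, Ptx3, Fshr, Cyp19a1, Inhba and Inha had no count in control libraries. Of the 2 cumulus and granulosa markers that could be tested, Inha was higher in A485, with 2.26, 1.39, 1.36 and 0.813 CPM in A485 libraries against 0 in all control libraries (edgeR adjusted p = 0.00036). Inha passed the filter on low counts through its A485 libraries alone, where it was high. Oocyte markers summed to 10.2 to 20.5 CPM in A485 and 9.07 to 15.1 CPM in control, and of the 4 oocyte markers tested Figla was higher, with a mean of 0.96 CPM in A485 and 0.302 CPM in control. Sperm markers summed to at most 0.739 CPM in A485 and 0.573 CPM in control. The part of these marker shifts in the results below was not tested. In pooled embryos, fewer cells of a type and less RNA per cell cannot be told apart.

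Among the 41 tested excision repair genes, 20 fell in A485 embryos, 9 rose and 12 did not pass the test. Neil3, 1 of the 9 that rose, passed the filter on low counts through its A485 libraries alone, where it was high. The share that fell was 48.8%, against 25.0% of all tested genes, and the share that rose was 22.0%, against 29.7%. A change of at least 2-fold was called in 10 genes that fell and 3 that rose, where 14.3% and 22.2% of all tested genes did so. The median log2 fold change was -0.44 over the 41 genes and 0.085 over all tested genes. With libraries scaled by total counts alone, 15 fell and 11 rose, against 17.8% and 38.1% of all tested genes, and the median of all tested genes moved to 0.372. The 4 libraries of A485 lay wholly below those of control for 21 genes and wholly above for 7, where 24.6% and 26.9% of all tested genes did so, 51.5% in either direction. In the authors' deposited table, 21 of the 42 genes were lower and 8 higher at a q-value under 0.05, where 19.6% and 24.3% of all genes with a q-value were (43.9% in either direction), and 28 of the 29 genes called by edgeR were called there in the same direction.

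**Figure D1:**
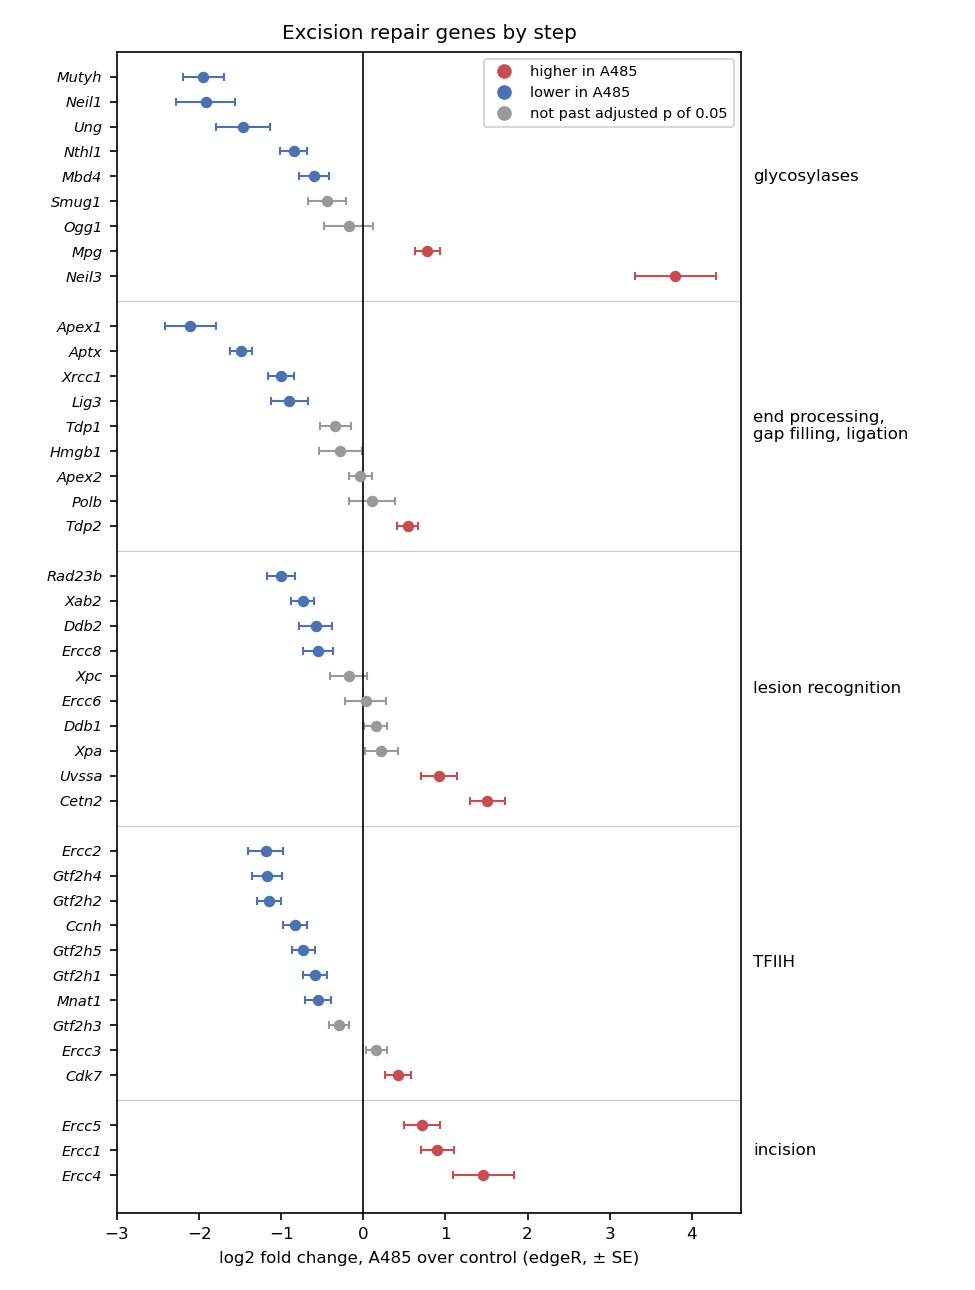
Log2 fold change of A485 over control for the 41 tested genes, grouped by repair step, from edgeR's quasi-likelihood fit on 4 A485 and 4 control libraries. Points are estimates and bars are standard errors, and colour gives the call at an adjusted p of 0.05. All 3 incision genes lie to the right of 0, whereas 8 of the 10 TFIIH genes lie to the left of it.

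Per transcript length, the genes lay between the 29.1 and 98.9 percentiles of the table by control TPM. Polb, encoding the polymerase that fills the gap in base excision repair, had 1177 ± 468 TPM in A485 and 894 ± 155 TPM in control (SD, n = 4 per group), and it made up 38.6% of the summed TPM of all 42 genes in control. It was followed in control by Hmgb1 (292 ± 23.2 TPM), Apex1 (253 ± 36.0 TPM) and Gtf2h5 (212.5 ± 14.1 TPM). The intervals of mean ± SD overlapped between Hmgb1 and Apex1 and between Apex1 and Gtf2h5. In all, 6 genes were at or above the 90th percentile of the table by control TPM and 4 were below its median, namely Neil2, Neil3, Ercc6 and Uvssa. The lowest were Neil2 at 0.133 ± 0.0665 TPM in A485 and 0.100 ± 0.0970 TPM in control, and Neil3 at 2.51 ± 1.05 TPM in A485 and 0.140 ± 0.108 TPM in control. Ercc6, which encodes the CSB protein, had 0.493 ± 0.107 TPM in A485 and 0.375 ± 0.0370 TPM in control.

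Of the 9 DNA glycosylase genes tested, 5 fell, 2 rose and 2 did not pass. That is 55.6% lower and 22.2% higher, against 25.0% and 29.7% of all tested genes. Ung, the main uracil-DNA glycosylase gene, had 61.7, 33.5, 15.8 and 39.5 CPM in A485 libraries and 104, 109, 97.4 and 105 CPM in control libraries (log2 fold change -1.47 ± 0.33, SE; edgeR adjusted p = 0.0036). Every A485 library lay below every control library, and the A485 libraries were 3.91-fold apart, against 1.12-fold for control. Mbd4, which acts on thymine and uracil mispaired at methylated sites, fell less, to 5.999 ± 0.421 CPM in A485 against 9.07 ± 0.978 CPM in control (SD, n = 4 per group; log2 fold change -0.60 ± 0.18, SE). Its call was lost under total-count scaling and without control replicate 2 (edgeR adjusted p of 0.209 and 0.0655). Smug1, the other uracil glycosylase gene, had 4.91 ± 1.15 CPM in A485 and 6.68 ± 0.642 CPM in control, with an estimated change of -0.44 ± 0.23 on the log2 scale (SE; adjusted p = 0.13 by edgeR). Without A485 libraries 1 and 2 the Smug1 change was -0.75 (edgeR adjusted p = 0.0294), and without A485 libraries 3 and 4 it was -0.2 (edgeR adjusted p = 0.494). This split was chosen after seeing the data, so these p-values do not test a fall of Smug1.

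The glycosylase genes for oxidised bases went in opposite directions. Mutyh, whose product removes adenine paired with oxidised guanine, had 7.68, 6.91, 4.25 and 3.59 CPM in A485 libraries and 23.6, 22.7, 20.7 and 19.9 CPM in control libraries. The groups did not overlap, and the log2 fold change was -1.95 ± 0.25 (SE; edgeR adjusted p = 0.00017). Neil1, encoding a glycosylase for oxidised pyrimidines, had 2.83, 3.66, 1.63 and 1.04 CPM in A485 libraries and 7.09, 8.76, 9.96 and 8.81 CPM in control libraries (log2 fold change -1.92 ± 0.36, SE; edgeR adjusted p = 0.0014). Its A485 libraries 3 and 4 were the lowest of the 8. Nthl1, which also acts on oxidised pyrimidines, fell to 16.6 ± 2.60 CPM in A485 against 29.9 ± 4.19 CPM in control (SD, n = 4 per group). Ogg1, the glycosylase gene for oxidised guanine itself, had 2.75, 2.49, 1.57 and 2.96 CPM in A485 libraries and 3.08, 2.35, 3.08 and 2.51 CPM in control libraries. Its groups overlapped, the estimated change of -0.18 ± 0.30 on the log2 scale (SE; adjusted p = 0.64 by edgeR) did not pass, and its sign turned under total-count scaling. Ogg1 shares 10.6% of its exon bases with Camk1 on the opposite strand, which had 19.1 ± 6.80 CPM in A485 and 18.03 ± 3.06 CPM in control (SD, n = 4 per group).

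Neil3, a glycosylase gene known for acting on single-stranded DNA and on DNA crosslinks in dividing cells, rose in all A485 libraries. It had 3.57, 4.24, 6.30 and 3.22 CPM in A485 libraries and 0.220, 0.135, 0.625 and 0.232 CPM in control libraries, or 475 counts over the A485 group and 28 over the control group. The log2 fold change was 3.80 ± 0.49 (SE; edgeR adjusted p = 0.00016) and 3.74 with no filter on low counts (edgeR adjusted p = 7.96e-05). The size of the fold rests on few control counts, with control replicate 3 the highest of the control libraries. Within each library the ratio of Neil3 to Neil1 in TPM was 1.07, 0.957, 3.02 and 2.18 in A485 and 0.0516, 0.0330, 0.0671 and 0.0413 in control. The lower-expressed gene of the pair in control thus reached the level of the other in A485. Neil2, the third member of the family, had 0.184 ± 0.0451 CPM in A485 and 0.196 ± 0.187 CPM in control and was not tested. Mpg, the only member of the glycosylase list that removes alkylated bases, rose, with 42.1, 37.2, 52.0 and 39.2 CPM in A485 libraries and 25.5, 24.2, 24.3 and 25.3 CPM in control libraries (log2 fold change 0.78 ± 0.15, SE). Mpg shares 35.7% of its exon bases with Nprl3 on the opposite strand, and Nprl3 had 6.67 ± 1.44 CPM in A485 and 5.86 ± 1.02 CPM in control (SD, n = 4 per group).

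**Figure D2:**
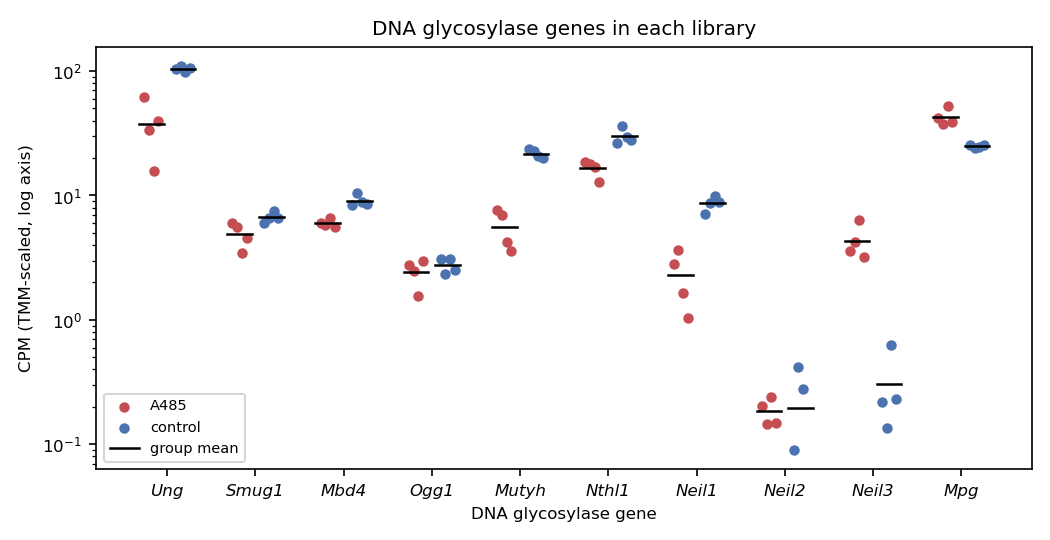
TMM-scaled CPM of the 10 DNA glycosylase genes in each library, with A485 in red at the left of each gene and control in blue at the right, and bars at the group means. The axis is logarithmic, so the control library of Neil2 without a count is not drawn. Neil3 lies higher and Mutyh and Neil1 lie lower in all 4 A485 libraries than in any control library.

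Downstream of the glycosylases, 4 of 9 genes fell, 1 rose and 4 did not pass. The shares were 44.4% lower and 11.1% higher, against 25.0% and 29.7% of all tested genes. The 4 that fell encode the main endonuclease for sites without a base, the scaffold protein, its ligase partner and an end-cleaning enzyme. Apex1, the endonuclease gene, had 111, 78.9, 36.6 and 52.5 CPM in A485 libraries and 255, 355, 269 and 328 CPM in control libraries (log2 fold change -2.11 ± 0.31, SE; edgeR adjusted p = 0.00033). This was the largest fall among the 41 genes tested, and the highest A485 library was below the lowest control library. Apex1 shares 61.7% of its exon bases with Pip4p1 on the opposite strand, so the assignment of its reads is uncertain without strand information. Pip4p1 had 128 ± 14.5 CPM in A485 and 159 ± 18.9 CPM in control (SD, n = 4 per group), with an estimated change of -0.31 ± 0.14 on the log2 scale (SE; adjusted p = 0.074 by edgeR). Apex2, the related endonuclease gene, had 22.5, 21.1, 25.2 and 24.7 CPM in A485 libraries and 23.8, 26.4, 23.2 and 22.6 CPM in control libraries, with overlapping groups (log2 fold change -0.04 ± 0.14, SE; edgeR adjusted p = 0.84).

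Xrcc1, encoding the scaffold that gathers the repair enzymes at a nick, had 91.9, 76.4, 79.5 and 57.7 CPM in A485 libraries and 148, 146, 178 and 140.0 CPM in control libraries. Its log2 fold change was -1.0 ± 0.16 (SE; edgeR adjusted p = 0.00051), and the groups did not overlap. Lig3, the DNA ligase that XRCC1 binds, had 22.5, 21.2, 13.3 and 11.97 CPM in A485 libraries and 30.5, 28.9, 30.0 and 39.3 CPM in control libraries (log2 fold change -0.90 ± 0.23, SE; edgeR adjusted p = 0.0073). The ratio of Lig3 to Xrcc1 in TPM averaged 0.0897 in A485 and 0.0983 in control (geometric means), with overlapping groups and an exact two-sided permutation p of 0.486. Lig3 shares 25.1% of its exon bases with Rffl on the opposite strand, and Rffl also fell, to 8.70 ± 2.50 CPM in A485 against 43.3 ± 0.319 CPM in control (SD, n = 4 per group; edgeR adjusted p = 2.7e-05). The part of Rffl reads in the fall of Lig3 was not tested.

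Aptx, encoding aprataxin, which removes the adenylate left by failed ligation, had its A485 libraries close together. It had 46.5, 45.8, 45.2 and 53.8 CPM in A485 libraries and 132, 152, 128 and 125 CPM in control libraries (log2 fold change -1.49 ± 0.13, SE; edgeR adjusted p = 2.0e-05). The enzymes that remove trapped topoisomerases differed, since Tdp2 rose to 57.4 ± 5.86 CPM in A485 against 39.5 ± 3.19 CPM in control (SD, n = 4 per group; log2 fold change 0.54 ± 0.13, SE). Tdp1 had 10.1 ± 1.51 CPM in A485 and 12.8 ± 2.31 CPM in control (log2 fold change -0.34 ± 0.19, SE; edgeR adjusted p = 0.17). The ratio of Tdp2 to Tdp1 in TPM was 6.18, 5.27, 5.63 and 6.92 in A485 libraries and 3.81, 3.75, 2.69 and 2.88 in control libraries, so that no A485 library overlapped control.

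Polb and Hmgb1 split the A485 libraries. Polb had 3383, 3518, 1697 and 1583 CPM in A485 libraries and 2071, 3051, 2148 and 2250.0 CPM in control libraries. Libraries 1 and 2 of A485 lay above all control libraries and libraries 3 and 4 below all of them, so the log2 fold change over all libraries was 0.10 ± 0.28 (SE; edgeR adjusted p = 0.79). Without A485 libraries 1 and 2 it was -0.56 (edgeR adjusted p = 0.0187), and without A485 libraries 3 and 4 it was 0.54 (edgeR adjusted p = 0.0297). This split was chosen after seeing the data, so these p-values do not test whether the A485 libraries respond in different ways. Hmgb1, a chromatin protein that can assist base excision repair, had 1117, 681.5, 426 and 525 CPM in A485 libraries and 939, 826, 795 and 768 CPM in control libraries (log2 fold change -0.28 ± 0.26, SE; edgeR adjusted p = 0.39). Only A485 library 1 lay above control, and without it the log2 fold change was -0.62 (edgeR adjusted p = 0.00883). Processed pseudogenes of Hmgb1 are common in mammals, so its count is uncertain.

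The spread among A485 libraries exceeded 2-fold for 7 of the 41 tested genes, namely Ung, Mutyh, Neil1, Apex1, Polb, Hmgb1 and Ercc4, whereas among control libraries it did so for Neil3 alone. The median ratio of the highest to the lowest library over the 41 genes was 1.5 in A485 and 1.25 in control, against 1.88 in A485 and 1.47 in control over all tested genes.

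**Figure D3:**
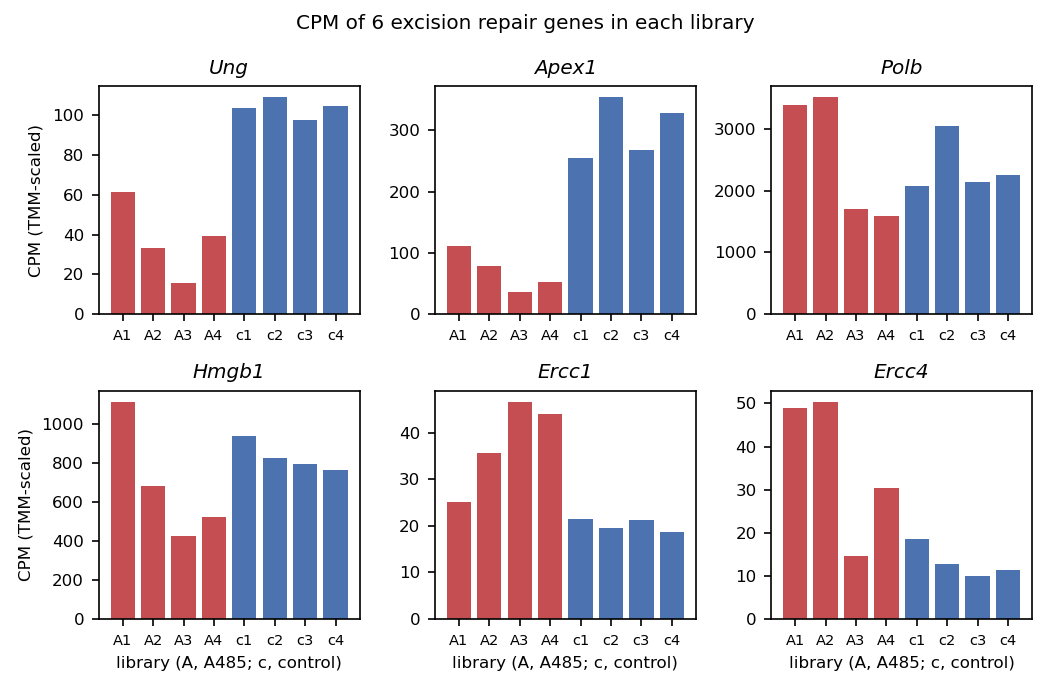
TMM-scaled CPM of 6 genes in each library, with the 4 A485 libraries (A1 to A4, red) left of the 4 control libraries (c1 to c4, blue) and axes that start at 0. Polb is high in A1 and A2 and low in A3 and A4, Ercc4 is lowest of its group in A3, and Ung and Apex1 are below control in every A485 library.

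The 4 genes with the largest called changes were Neil3, Apex1, Mutyh and Neil1. Their promoters from RefSeq (GRCm38.p6, 250 bases before to 50 bases after a listed start, on the strand of the gene) are shown because 3 of these genes fell together and 1 rose. For Neil1 and Mutyh the start used lies inside the gene, whose outermost start is at chr9:57148688 for Neil1 and chr4:116807636 for Mutyh. Capitals mark matches on either strand to GGGCGG, the core of the Sp1 site, CCGGAA, the core of ETS sites, TGCGCA, part of the NRF1 site, TGACGT, part of the cyclic AMP response element, CACGTG, the E-box, and CCAAT. Neighbouring capitals can be overlapping matches of the same motif.
Neil3 promoter at chr8:53639016-53639315, minus strand: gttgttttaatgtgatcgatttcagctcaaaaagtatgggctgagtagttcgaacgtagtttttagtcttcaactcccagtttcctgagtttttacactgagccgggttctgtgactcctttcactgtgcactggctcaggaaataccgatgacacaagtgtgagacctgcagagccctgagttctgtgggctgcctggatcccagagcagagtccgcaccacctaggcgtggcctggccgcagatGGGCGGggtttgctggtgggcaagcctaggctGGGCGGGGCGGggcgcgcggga
Apex1 promoter at chr14:50924699-50924998, plus strand: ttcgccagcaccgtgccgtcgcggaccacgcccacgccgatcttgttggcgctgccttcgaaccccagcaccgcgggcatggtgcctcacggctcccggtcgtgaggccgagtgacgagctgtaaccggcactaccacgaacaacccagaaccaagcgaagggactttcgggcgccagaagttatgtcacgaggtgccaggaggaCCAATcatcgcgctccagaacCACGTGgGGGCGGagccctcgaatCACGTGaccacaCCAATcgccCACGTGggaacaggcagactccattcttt
Mutyh promoter at chr4:116807484-116807783, plus strand: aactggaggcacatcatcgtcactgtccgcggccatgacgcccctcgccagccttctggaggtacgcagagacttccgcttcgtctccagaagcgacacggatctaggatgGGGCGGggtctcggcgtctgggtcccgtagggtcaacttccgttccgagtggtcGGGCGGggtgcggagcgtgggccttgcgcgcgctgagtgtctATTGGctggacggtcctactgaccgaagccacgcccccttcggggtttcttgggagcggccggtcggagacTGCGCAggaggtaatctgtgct
Neil1 promoter at chr9:57148256-57148555, minus strand: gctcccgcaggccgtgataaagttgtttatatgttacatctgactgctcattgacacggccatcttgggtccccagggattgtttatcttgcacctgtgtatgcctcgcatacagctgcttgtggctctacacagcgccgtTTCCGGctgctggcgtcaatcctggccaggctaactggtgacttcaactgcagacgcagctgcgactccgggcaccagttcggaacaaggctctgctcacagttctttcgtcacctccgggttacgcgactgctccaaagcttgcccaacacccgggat

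The Neil3 promoter held 3 matches to GGGCGG and none to the other motifs, the Apex1 promoter 3 to CACGTG, 2 to CCAAT and 1 to GGGCGG, the Mutyh promoter shown 2 to GGGCGG and 1 each to CCAAT and TGCGCA, and the Neil1 promoter 1 to CCGGAA. Mutyh has another listed start, at chr4:116814069-116814368, whose window held 1 match to CCAAT and none to the other motifs. A promoter was found for 34 of the 42 genes, 18 of which fell and 8 of which rose, and for the 4 genes with more than 1 start (Mutyh, Aptx, Hmgb1 and Gtf2h5) the first listed start was counted. GGGCGG was present in 73.5% of them, against 63.0% of the promoters of all tested genes that were matched, and CCGGAA in 52.9% against 28.3%. CCAAT was present in 55.9% of them against 39.8%, TGCGCA in 20.6% against 14.6%, TGACGT in 17.6% against 11.7%, and CACGTG in 20.6% against 10.2%. CCGGAA was present in 9 of the 18 promoters of genes that fell and in 5 of the 8 of genes that rose, CCAAT in 11 and 4, and CACGTG in 5 and 1. These matches describe letters in this window and not bound sites.

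Lesion recognition was mixed, with 4 of 10 genes lower, 2 higher and 4 not past the threshold. Of all tested genes, 25.0% were lower and 29.7% higher. The count of recognition genes that fell was 2 under total-count scaling and also without A485 replicate 2 or control replicate 1. Xpc, encoding the protein that senses distorted DNA in the survey of the whole genome, had 4.02, 4.5, 5.10 and 5.17 CPM in A485 libraries and 4.45, 6.37, 5.25 and 5.29 CPM in control libraries. Its groups overlapped, with an estimated change of -0.18 ± 0.22 on the log2 scale (SE; adjusted p = 0.49 by edgeR), which turned positive under total-count scaling. The genes of its binding partners changed in opposite directions. Rad23b, whose product stabilises XPC, had 27.4, 31.4, 21.1 and 27.1 CPM in A485 libraries and 63.6, 54.1, 44.9 and 51.6 CPM in control libraries (log2 fold change -1.0 ± 0.17, SE; edgeR adjusted p = 0.00067). Cetn2, encoding centrin 2, which serves at centrioles as well as in the XPC complex, had 25.1, 31.4, 43.2 and 33.9 CPM in A485 libraries and 9.12, 11.5, 14.04 and 12.2 CPM in control libraries (log2 fold change 1.51 ± 0.21, SE; edgeR adjusted p = 0.00021). In both cases the groups did not overlap.

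Ddb1 and Ddb2 encode the complex that detects ultraviolet lesions, and DDB1 is also the adaptor of CUL4 ubiquitin ligases. Ddb1 had 176, 165, 170.1 and 234 CPM in A485 libraries and 154, 163, 179.5 and 178 CPM in control libraries, and its estimated change of 0.15 ± 0.14 on the log2 scale (SE; adjusted p = 0.40 by edgeR) passed only under total-count scaling (0.43, edgeR adjusted p = 0.0228). Ddb2 fell to 7.33 ± 1.5 CPM in A485 against 10.9 ± 0.649 CPM in control (SD, n = 4 per group; log2 fold change -0.58 ± 0.20, SE; edgeR adjusted p = 0.030). The Ddb2 call was lost in 8 of 19 alternatives, among them leaving out A485 replicate 2 or 4 or control replicate 1 or 2 (edgeR adjusted p of 0.0564 to 0.0892), and Ddb2 shares 23.8% of its exon bases with Acp2 on the opposite strand. Acp2 had 7.63 ± 2.19 CPM in A485 and 6.42 ± 0.178 CPM in control (SD, n = 4 per group). The part of Acp2 reads in the Ddb2 change was not tested. Xpa, which verifies the lesion, had 8.54, 7.90, 8.98 and 9.90 CPM in A485 libraries and 8.15, 5.73, 8.001 and 8.54 CPM in control libraries, with overlapping groups (log2 fold change 0.22 ± 0.20, SE; edgeR adjusted p = 0.37).

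The factors that act where RNA polymerase stalls also differed among themselves. Ercc6, whose product CSB binds the stalled polymerase, had 3.94, 2.96, 3.30 and 2.55 CPM in A485 libraries and 3.30, 3.16, 3.13 and 2.92 CPM in control libraries, with an estimated change of 0.03 ± 0.25 on the log2 scale (SE; adjusted p = 0.93 by edgeR). Ercc8, encoding CSA, the substrate receptor of a ubiquitin ligase, fell to 7.57 ± 1.07 CPM in A485 against 11.1 ± 0.751 CPM in control (SD, n = 4 per group; log2 fold change -0.55 ± 0.18, SE; edgeR adjusted p = 0.022). That call was lost under total-count scaling, without A485 replicate 2 or control replicate 1, and without A485 libraries 3 and 4 (edgeR adjusted p of 0.202, 0.0565, 0.0587 and 0.0772). Uvssa, which brings TFIIH to the stalled polymerase, had 8.91, 8.01, 9.83 and 12.6 CPM in A485 libraries and 4.71, 4.65, 6.67 and 4.73 CPM in control libraries. Its groups did not overlap, and it rose with an estimated change of 0.92 ± 0.22 on the log2 scale (SE; adjusted p = 0.0057 by edgeR). Xab2, which binds XPA and also works in splicing, fell to 46.2 ± 4.83 CPM in A485 against 77.0 ± 10.2 CPM in control (SD, n = 4 per group; log2 fold change -0.74 ± 0.14, SE). Xab2 shares 12.2% of its exon bases with Camsap3 on the opposite strand.

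TFIIH held the largest number of falls, with 7 of 10 genes lower, 1 higher and 2 not past the threshold, and a median log2 fold change of -0.66. Over all tested genes the shares were 25.0% lower and 29.7% higher, and no step was tested as a set. Of the 7 genes of the TFIIH core, 5 fell and 0 rose in edgeR, and of the 3 genes of its kinase module 2 fell and 1 rose. The helicase genes of the core separated. Ercc2, encoding the XPD helicase that unwinds DNA in repair, had 5.05, 3.66, 6.23 and 5.14 CPM in A485 libraries and 10.5, 10.1, 12.5 and 12.8 CPM in control libraries (log2 fold change -1.19 ± 0.21, SE; edgeR adjusted p = 0.0010). Ercc3, encoding the XPB translocase that also opens promoters, had 31.4, 30.9, 34.3 and 35.4 CPM in A485 libraries and 27.9, 29.8, 32.1 and 28.6 CPM in control libraries. The Ercc3 groups overlapped, and its estimated change of 0.16 ± 0.13 on the log2 scale (SE; adjusted p = 0.33 by edgeR) passed only under total-count scaling (0.44, edgeR adjusted p = 0.0247). Ercc2 shares 17.8% of its exon bases with Klc3 on the opposite strand, and Klc3 rose to 4.06 ± 1.04 CPM in A485 against 1.60 ± 0.570 CPM in control (SD, n = 4 per group; edgeR adjusted p = 0.0076). Ercc2 also shares 24.6% of its exon bases with Gm26852, an antisense gene absent from the deposited table. Whether these include the bases shared with Klc3 was not examined.

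Among the structural subunits of the TFIIH core, Gtf2h2, encoding p44, the partner of XPD, had 57.5, 45.7, 39.2 and 41.1 CPM in A485 libraries and 99.8, 112, 103 and 93.6 CPM in control libraries (log2 fold change -1.15 ± 0.15, SE; edgeR adjusted p = 0.00017). Gtf2h4, encoding p52, the partner of XPB, had 33.5, 36.0, 21.0 and 31.6 CPM in A485 libraries and 74.4, 62.1, 66.8 and 71.95 CPM in control libraries (log2 fold change -1.17 ± 0.18, SE; edgeR adjusted p = 0.00039). No A485 library overlapped control for either gene. Gtf2h5, encoding the small subunit p8 that is mutated in a form of trichothiodystrophy in humans, fell to 135 ± 22.0 CPM in A485 against 224 ± 11.4 CPM in control, and Gtf2h1, encoding p62, fell to 49.2 ± 7.58 CPM in A485 against 74.0 ± 5.92 CPM in control (SD, n = 4 per group). Gtf2h1 lost its call under total-count scaling (log2 fold change -0.29, edgeR adjusted p = 0.147). Gtf2h3, encoding p34, had 63.7, 59.8, 61.1 and 68.3 CPM in A485 libraries and 79.1, 82.3, 79.1 and 70.2 CPM in control libraries. Its groups did not overlap, but its log2 fold change of -0.30 ± 0.12 (SE) missed the threshold (edgeR adjusted p = 0.055) and passed in DESeq2 (-0.33, adjusted p = 0.0277).

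In the kinase module, which phosphorylates RNA polymerase and is released from TFIIH during repair, Ccnh, the cyclin gene, fell to 38.2 ± 5.07 CPM in A485 against 68.0 ± 7.22 CPM in control (SD, n = 4 per group; log2 fold change -0.83 ± 0.15, SE). Mnat1, encoding the assembly factor MAT1, fell to 33.9 ± 6.43 CPM in A485 against 49.6 ± 3.65 CPM in control (log2 fold change -0.55 ± 0.16, SE), a call that was lost under total-count scaling and without A485 libraries 3 and 4 (edgeR adjusted p of 0.118 and 0.0721). Cdk7, the kinase gene, had 80.6, 78.8, 120.2 and 102 CPM in A485 libraries and 80.5, 69.5, 71.1 and 64.2 CPM in control libraries. A485 libraries 1 and 2 lay close to control libraries, A485 libraries 3 and 4 lay above them, and the rise (log2 fold change 0.42 ± 0.16, SE; edgeR adjusted p = 0.048) was lost in 12 of 19 alternatives, DESeq2 among them (adjusted p = 0.0706). Leaving out A485 replicate 3 or 4, or any of the 4 control replicates, also lost that call (edgeR adjusted p of 0.0586 to 0.138).

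The 3 genes of incision all rose, where 29.7% of all tested genes did so. Ercc1, the partner that anchors the nuclease XPF to DNA, had 25.0, 35.6, 46.7 and 44.0 CPM in A485 libraries and 21.5, 19.6, 21.2 and 18.7 CPM in control libraries (log2 fold change 0.90 ± 0.20, SE; edgeR adjusted p = 0.0032). Every A485 library was above every control library, with library 1 the nearest to control. Ercc4, encoding XPF itself, had 49.1, 50.4, 14.7 and 30.5 CPM in A485 libraries and 18.6, 12.8, 9.96 and 11.3 CPM in control libraries (log2 fold change 1.46 ± 0.37, SE; edgeR adjusted p = 0.0069). A485 library 3 fell within the range of control, and without A485 libraries 1 and 2 the log2 fold change was 0.76 (edgeR adjusted p = 0.0668). Ercc5, encoding XPG, the nuclease that cuts on the other side of the lesion, had 9.03, 10.97, 9.15 and 7.58 CPM in A485 libraries and 5.37, 4.56, 7.25 and 5.10 CPM in control libraries (log2 fold change 0.72 ± 0.22, SE; edgeR adjusted p = 0.017). Its groups did not overlap, and the call was lost without A485 replicate 2 or control replicate 4 (edgeR adjusted p of 0.0512 and 0.0537). Without A485 libraries 1 and 2, only Ercc1 of the 3 passed.

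**Figure D4:**
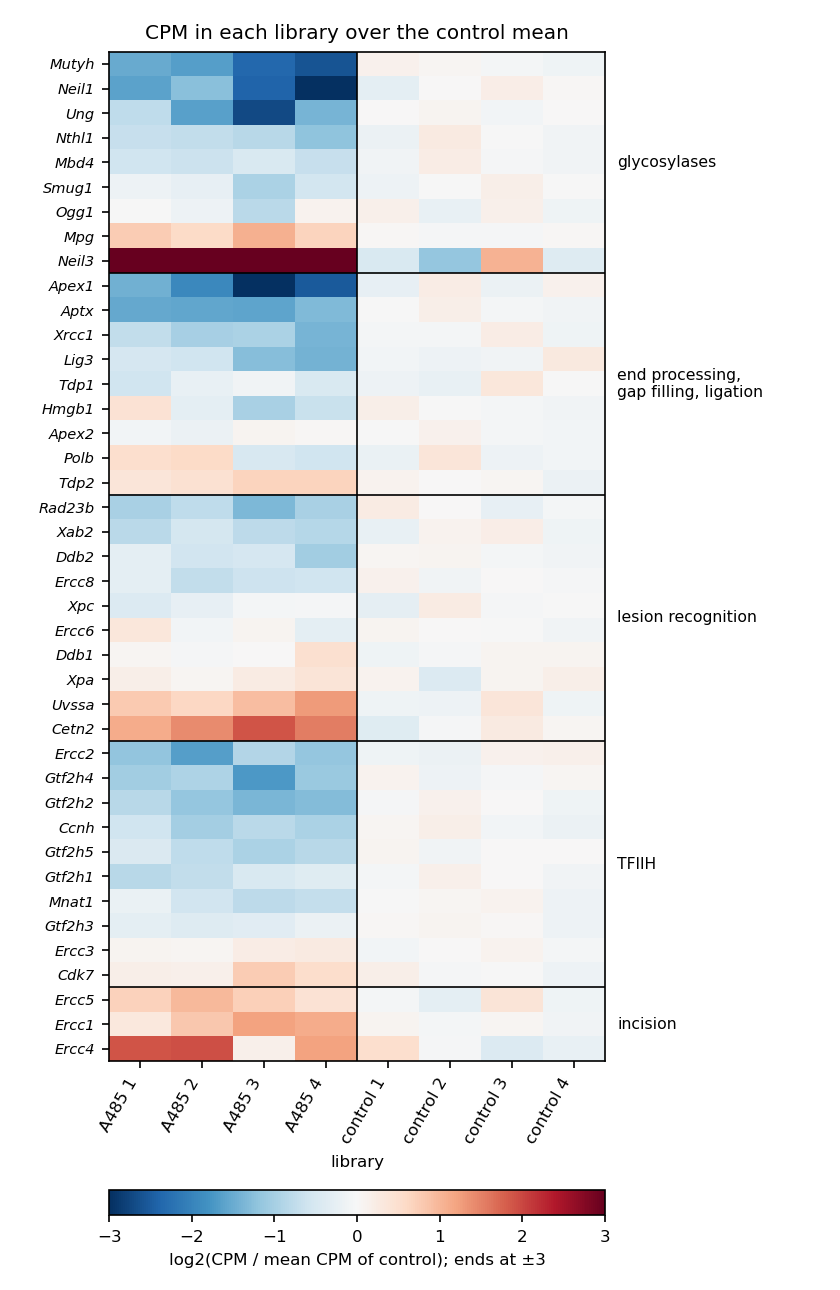
Log2 of CPM over the mean of control for the 41 tested genes (rows, grouped by repair step) in the 4 A485 libraries (left) and the 4 control libraries (right). Blue is lower and red is higher than the control mean, with colours ending at 3 on either side, so Neil3 in A485 lies beyond the scale. TFIIH rows are mostly blue in A485 and incision rows red, and A485 libraries 3 and 4 are darker than libraries 1 and 2 for Apex1, Mutyh and Lig3.

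Ratios between genes whose products share a complex, a step or a family were taken within each library from TPM with a pseudocount of 0.1. The 12 ratios were tested by exact permutation of the libraries (two-sided, 70 assignments). The smallest p that can be reached is 0.0286, or 0.0381 after Benjamini-Hochberg adjustment over the 12. The groups did not overlap for 9 ratios, each with an exact p of 0.0286, 4 of them higher and 5 lower in A485. The pairs were chosen with earlier results of these data known, and any full separation of the groups gives this smallest p. Of single tested genes, 51.5% had groups that did not overlap, and no share over gene pairs in general was taken. Cetn2 to Xpc averaged 22.95 in A485 and 7.14 in control (geometric means), a difference of 1.68 on the log2 scale, and it was higher in 4 of 4 A485 libraries. Rad23b to Xpc averaged 5.12 in A485 and 8.98 in control, with a log2 difference of -0.81. The transcripts of the XPC complex thus changed in their proportions.

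Within TFIIH, Ercc3 to Ercc2 averaged 8.63 in A485 and 3.46 in control (geometric means; log2 difference of 1.32). Ccnh to Cdk7 averaged 1.75 in A485 and 4.14 in control (log2 difference of -1.24), and Mnat1 to Cdk7 averaged 2.23 in A485 and 4.20 in control (log2 difference of -0.92). Both ratios lay below control in 4 of 4 A485 libraries. They share Cdk7, and Ccnh and Mnat1 each lay wholly below control as single genes. The ratios therefore add nothing to the test of Cdk7 alone, which was close to its threshold. Ercc8 to Ercc6 averaged 8.33 in A485 and 11.9 in control, and Ddb2 to Ddb1 averaged 0.103 in A485 and 0.172 in control, with log2 differences of -0.52 and -0.74. Without A485 replicate 4, the lowest at 0.0586, the difference for Ddb2 to Ddb1 was -0.47. With a pseudocount of 1 all 9 ratios kept their direction and call, but the log2 difference was -0.3 for Ercc8 to Ercc6 and 2.79 for Neil3 to Neil1. The ratio of Ercc4 to Ercc1, the nuclease and its partner, was 0.274, 0.201, 0.0452 and 0.0983 in A485 libraries and 0.122, 0.0944, 0.0680 and 0.0869 in control libraries. That ratio spanned the control range on both sides (exact permutation p = 0.429, 0.468 adjusted), and Ercc5 to Ercc4 also overlapped (exact permutation p = 0.229, 0.274 adjusted).

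**Figure D5:**
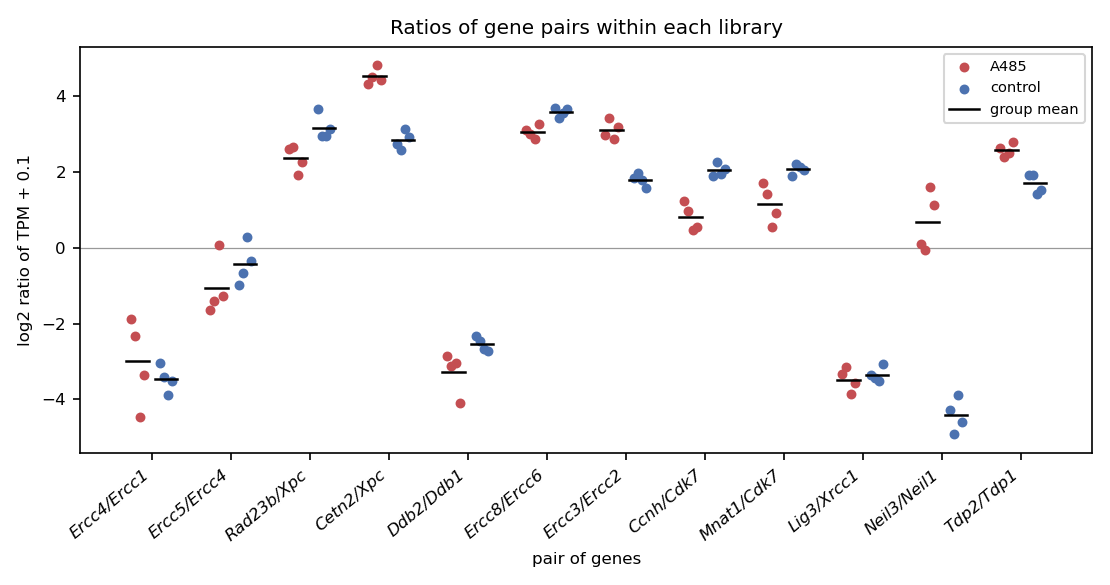
Log2 ratio of TPM plus 0.1 for 12 pairs of genes in each library, with A485 in red at the left and control in blue at the right of each pair and bars at the group means. The groups are separate for 9 pairs, with the largest gap for Neil3 to Neil1 (log2 difference of 5.11), and overlap for Ercc4 to Ercc1, Ercc5 to Ercc4 and Lig3 to Xrcc1.

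Among 34 other genes that serve base or nucleotide excision repair, all of which were tested, 12 fell (35.3%, against 25.0% of all tested genes), 10 rose (29.4%, against 29.7%) and 12 did not pass, with a median log2 fold change of -0.04. With total-count scaling, 10 fell and 14 rose, where 17.8% and 38.1% of all tested genes did so. Hmces, encoding a protein that shields sites without a base in single-stranded DNA, had 38.4, 34.9, 63.9 and 60.7 CPM in A485 libraries and 6.74, 3.34, 4.63 and 5.52 CPM in control libraries (log2 fold change 3.29 ± 0.28, SE; edgeR adjusted p = 2.2e-05). Cul4a, the scaffold gene of the ubiquitin ligase that carries DDB1, had 30.9, 38.9, 48.9 and 61.6 CPM in A485 libraries and 13.7, 8.53, 13.5 and 9.93 CPM in control libraries (log2 fold change 1.98 ± 0.25, SE; edgeR adjusted p = 0.00014). Neither gene overlapped between groups. Parp1, whose product detects breaks and recruits XRCC1, fell to 42.0 ± 6.88 CPM in A485 against 115 ± 3.88 CPM in control, and Pold3, a subunit gene of the polymerase that resynthesises DNA, fell to 51.1 ± 11.99 CPM in A485 against 135 ± 9.42 CPM in control (SD, n = 4 per group). Tdg had 13.83, 28.28, 33.99 and 37.25 CPM in A485 libraries and 14.27, 4.424, 10.29 and 9.835 CPM in control libraries. It rose by 1.55 ± 0.38 on the log2 scale (SE, edgeR adjusted p = 0.0061), with overlapping groups.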

How the data were processed

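Polyadenylated RNA was measured in 4 A485 and 4 control libraries, made from preamplified cDNA with a transposase, per the labels. The authors deposited 1 table that holds, per the file headers, an estimated count, an FPKM, a TPM and a normalized count (a scaled signal) per library, with their own log2 fold change, p-value and q-value. Per the submitters' processing notes, HISAT2 2.2.1, RSEM 1.2.28 and DESeq2 1.40.2 were used with the mouse build GRCm38.p6. No source used here states the strandedness, which bears on genes that overlap on opposite strands. Estimated counts (18.2% were not whole) were rounded and fitted in R 4.3.3 with edgeR 4.0.16 by filterByExpr, TMM factors and a robust quasi-likelihood model of group alone, and p-values were adjusted over all 12936 tested genes by Benjamini-Hochberg. A standard error is the absolute log2 fold change over the root of the F statistic. CPM values are TMM-scaled, and no spike-in is named in the sources, so changes are relative and depend on the scaling chosen. The median log2 fold change of all tested genes was 0.085 with TMM factors and 0.372 with total counts alone. TPM served for levels between genes and for ratios; FPKM and normalized counts were not used. Precision is limited by 4 pools per group and by counts, which ran up to 96165 in a library for Polb and down to 0 for Neil2. The code was tested on simulated data whose spread was taken from control libraries alone. That test does not cover the wider spread among A485 libraries or the large share of genes called here.

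The members, lists, ratios, motifs and alternatives were chosen with earlier results of these data known. Genes past the threshold are given library by library where their absolute log2 fold change was at least 1 or they stood alone in their role. Some others were chosen after their values were seen. Of the other excision repair genes, the 4 with the smallest p are named, and also Tdg. Exon overlap came from GENCODE on GRCm38 and promoters from RefSeq. Alternatives were DESeq2 1.42.0, limma-voom (limma 3.58.1), other scaling factors, filters and dispersion, a replicate block, and leaving out libraries, of which leaving out A485 libraries 1 and 2 or 3 and 4 was chosen after seeing the data.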

Additional observations from a re-analysis of the deposited data

Results flagged for a closer look

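In 82 groups of 4 libraries (41 genes in A485 and in control), 5 had 1 library apart from the other 3 by Dixon's criterion, which chance meets in about 1 of 20 groups. In A485, Aptx had 53.8 CPM in replicate 4 against 45.2 to 46.5 CPM in the others, Ddb1 had 234 CPM in replicate 4 against 165 to 176 CPM, and Xab2 had 53.4 CPM in replicate 2 against 42.9 to 44.4 CPM. In control, Lig3 had 39.3 CPM in replicate 4 against 28.9 to 30.5 CPM, and Uvssa had 6.67 CPM in replicate 3 against 4.65 to 4.73 CPM.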

How the results depend on the processing

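Of the 29 called genes, 21 kept direction and call in all 19 alternatives run; the other 8 (Mbd4, Ddb2, Ercc8, Gtf2h1, Cdk7, Mnat1, Ercc4 and Ercc5) lost the call in at least 1, and none of the 29 turned its direction. Leaving out 1 library at a time gave 18 to 21 genes lower and 7 to 9 higher. Lesion recognition had 2 falls when libraries were scaled by total counts or A485 libraries 3 and 4 were left out, and 2 to 4 with 1 library left out. TFIIH had 0 genes higher with DESeq2, limma-voom, RLE factors, no filter, the replicate block or without A485 libraries 3 and 4, where Cdk7 missed the threshold, 2 under total-count scaling, and 0 to 1 with 1 library left out. The glycosylases had 1 gene higher under a filter of 5 CPM, which removed Neil3; end processing had 2 higher without A485 libraries 3 and 4, and incision 1 without A485 libraries 1 and 2. Among genes not called, log2 fold changes turned sign under total-count scaling for Ogg1 (0.09), Xpc (0.11) and Apex2 (0.25), for Apex2 also with upper-quartile factors (0.06), the 5 CPM filter (0.09) and without A485 libraries 1 and 2 (0.04), for Polb without A485 libraries 1 and 2 (-0.56), for Hmgb1 without A485 libraries 3 and 4 (0.11), and for Ercc6 with DESeq2 (-0.0), no filter (-0.03) and without A485 libraries 1 and 2 (-0.11). With 1 library left out, Apex2 ranged from -0.1 to 0.03, Polb from -0.1 to 0.27 and Ercc6 from -0.1 to 0.12. The cause was not tested. Deviations of same-numbered libraries had correlations of 0.0051, 0.0137, 0.104 and 0.0672, against -0.127 to 0.143 for other pairs. Whether same-numbered pools share a litter or culture day is not given in the sources. The replicate block left 20 genes lower and 8 higher. With the replicate block the smallest p for a ratio is 0.125, so the 9 called ratios could not pass there (adjusted p = 0.15, exact sign-flip test), at the same log2 differences of -0.81 (Rad23b to Xpc), 1.68 (Cetn2 to Xpc), -0.74 (Ddb2 to Ddb1), -0.52 (Ercc8 to Ercc6), 1.32 (Ercc3 to Ercc2), -1.24 (Ccnh to Cdk7), -0.92 (Mnat1 to Cdk7), 5.11 (Neil3 to Neil1) and 0.88 (Tdp2 to Tdp1). A pseudocount of 1 ended no call of a ratio. Lig3 to Xrcc1 was 0.07 from estimated counts in place of TPM. Depth limits Neil2 and, in control, Neil3.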
